A study of Homo sapiens with 9 samples.

Results

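S100 proteins are small calcium-binding proteins, and 10 of their genes were followed in the human neuroblastoma line LAN-5 after exposure to 1 member of the same family, the S100B protein. The genes were S100B, S100A10, S100A11, S100A13, S100A6, S100A4, S100A2, S100A8, S100A9 and S100P, taken by symbol from the probe annotation with no filter on intensity. Each had 1 probe set, so the family made up 10 of 8746 probe sets and 10 of 7713 named genes on the array, which carried 17 S100 genes in all. There were 9 Affymetrix 1-colour arrays in 3 groups of 3, from cells given culture medium alone (untreated), S100B protein at 0.5 nM or S100B protein at 5 µM. All groups were LAN-5 cells grown in DMEM with no other agent named, so the data describe 1 tumour line. The series design calls the 3 arrays of a group biological replicates, and the length of the exposure is not given in the sources used here.

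An S100 protein usually works as a dimer of subunits that each hold a pair of EF-hand calcium-binding loops. Calcium opens a hydrophobic face that grips partner proteins such as annexins, myosin heavy chains or p53, and several members also leave the cell and act on the receptors RAGE and TLR4. In the nervous system S100B is best known from astrocytes and Schwann cells, and in neuroblastoma tumours S100 staining is a mark of the Schwann cell stroma and not of the neuroblasts. Most of the genes lie in a cluster on chromosome 1, S100P lies on chromosome 4 and S100B on chromosome 21.

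The arrays were alike. Their medians were 6.60 to 6.64 on the log2 scale, and arrays correlated across probe sets at 0.9959 to 0.9983 within groups and at 0.9961 to 0.998 between groups. Hybridisation controls (9 spiked-in probe sets) averaged lowest on untreated replicate 1, at 8.40 log2 against 8.59 to 9.07 elsewhere. Of 15 measured noradrenergic neuroblastoma markers, 14 lay above 5.95 log2, the bound under which the dimmest 33.3% of probe sets fell by mean level, among them the transcription factor GATA3 with a mean of 11.86 in untreated cells. The noradrenergic marker below the bound was TH, at 5.55 in untreated cells. The bound was also passed by 4 of 13 Schwann and mesenchymal, 4 of 10 astrocyte and oligodendrocyte, 2 of 9 leukocyte and 5 of 11 epithelial markers. Some of these were bright, with untreated means of 10.85 for VIM, 10.41 for TWIST1, 10.5 for GLUL and 9.02 for SFN. Of the S100 genes followed here, S100A10, S100A11, S100A13, S100A6, S100A4 and S100A2 lay above the bound, and S100B, S100A8, S100A9 and S100P lay below it. GCRMA, the submitters' processing, can compress differences near background, and no detection calls were used here, so for the last 4 genes the values may hold little specific signal. The bound is not a detection limit: the leukocyte marker CD3E had a mean of 7.31 in untreated cells. S100A10, S100A11 and S100A2, with means of 6.37, 6.26 and 6.31, lay below the array medians and may hold little specific signal too. All levels are log2 values, and levels of different probe sets cannot be ranked against each other.

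None of the 10 S100 genes passed the test at either dose. At 5 µM against untreated cells 0 of 10 were called by limma at an adjusted p under 0.05, beside 0.183% of all 8746 probe sets, and 0 of 10 had an unadjusted p under 0.05, beside 7.71% of all. At 0.5 nM against untreated cells 0 of 10 were called, beside 0% of all, and between the doses 0 of 10, beside 0.16% of all, again with 0 of 10 under an unadjusted 0.05. The log2 differences ran from -0.08 for S100B to 0.11 for S100A6 at 5 µM and from -0.08 for S100A10 to 0.04 for S100A2 at 0.5 nM. Between the doses they ran from -0.06 for S100A2 to 0.11 for S100A6. Fewer cells with a transcript and less of it per cell cannot be told apart in such bulk RNA.

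All 30 of the 95% intervals, from 10 genes in 3 comparisons, included 0. At 5 µM the intervals reached from 86.9% of the untreated level, the lower end for S100B, to 125.9%, the upper end for S100A6. At 0.5 nM they reached from 85.6% to 116.4%, and between the doses from 88.4% to 126.2%. These intervals are not adjusted for the number of comparisons. For S100B, S100A8, S100A9 and S100P, below the bound of 5.95, a percentage describes the probe set's deposited values and does not bound the change of the transcript. The same may hold for S100A10, S100A11 and S100A2, above that bound but below the array medians.

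**Figure D1:**
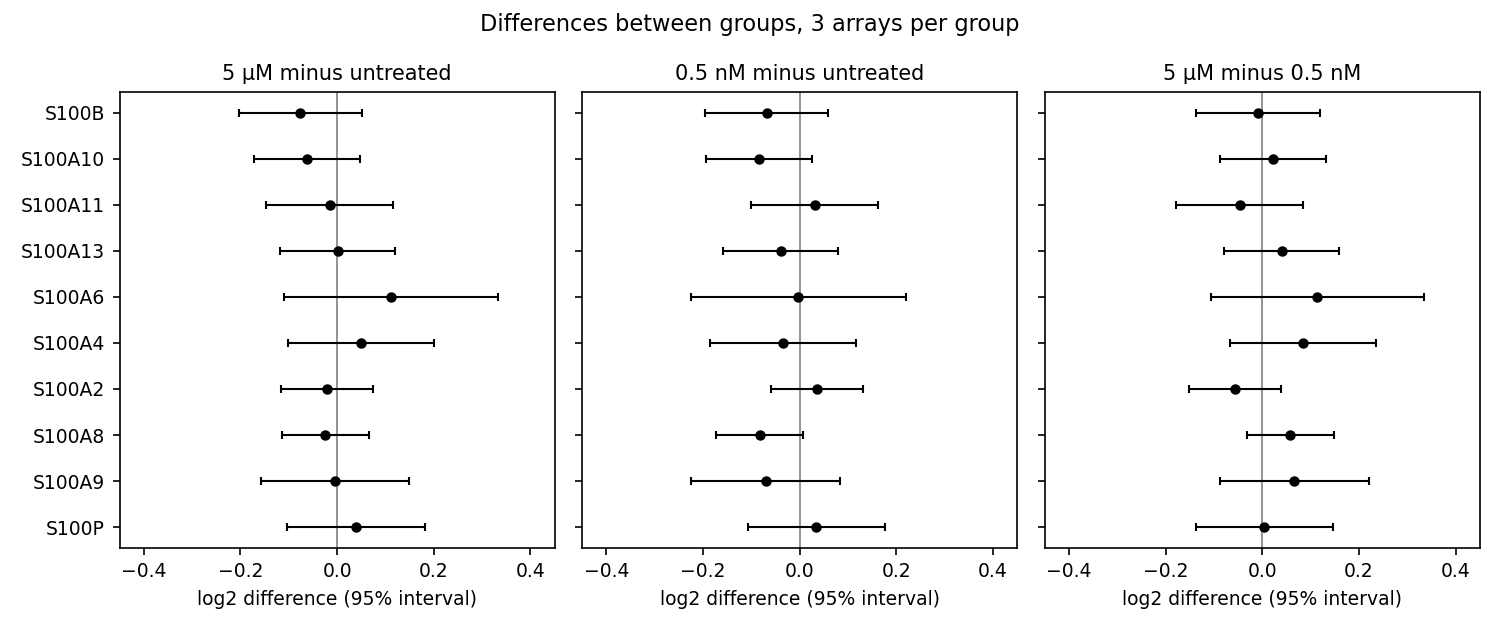
Log2 difference of the 10 S100 genes in the 3 comparisons, with 95% intervals from limma, 3 arrays per group. Every interval crosses 0, and the widest are those of S100A6, from -0.11 to 0.33 at 5 µM against untreated.

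The shares of lower and higher members are given beside those of the array as a whole, with no test of the difference. At 5 µM 6 of 10 genes lay below untreated, beside 59.1% of all probe sets, with a median of -0.0096 against -0.016 over all. At 0.5 nM 7 of 10 lay below untreated, beside 58.4%, with a median of -0.04 against -0.013. Between the doses 3 of 10 lay lower at 5 µM, beside 52.8%, with a median of 0.03 against -0.0047. At 5 µM the signs of S100A11, S100A13, S100A2, S100A9 and S100P each changed in at least 1 alternative setting. Under quantile normalization S100A11, S100A2 and S100A9 lay above untreated there, at 0.0147, 0.0118 and 0.012. At 0.5 nM the signs of S100A11, S100A6, S100A4, S100A9 and S100P changed in at least 1 setting. Between the doses those of S100A13, S100A6, S100A9, S100P and S100B did. The counts of lower genes thus depend on the setting. The 3 comparisons share arrays, so their signs are not independent of each other.

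S100B comes first, since its protein was the treatment and the array reads only the cells' own transcript. Untreated cells gave 5.56, 5.73 and 5.56 log2 in replicates 1, 2 and 3. Cells at 0.5 nM gave 5.56, 5.53 and 5.56, and cells at 5 µM gave 5.57, 5.47 and 5.58. The groups overlapped, and untreated replicate 2 stood above the other arrays, which lay within 5.47 to 5.58. Group means were 5.62 ± 0.10, 5.55 ± 0.02 and 5.54 ± 0.06 (SD, n = 3).

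The S100B probe set was at 94.86% of untreated at 5 µM (95% interval 86.86% to 103.6%, limma's adjusted p = 0.786) and at 95.42% at 0.5 nM (87.36% to 104.2%, adjusted p = 0.979). Without untreated replicate 2 the log2 difference at 5 µM went from -0.08 to -0.02 and that at 0.5 nM from -0.07 to -0.0086. Astrocyte and oligodendrocyte markers, the cell types that hold S100B in the brain, had a mean over 10 genes of 6.153 to 6.174 on untreated arrays, 6.135 to 6.168 at 0.5 nM and 6.114 to 6.146 at 5 µM. In this list all 5 µM arrays lay below all untreated arrays, by a gap of 6.146 against 6.153, whereas for S100B itself the groups overlapped. In the same comparison 13% of all probe sets had arrays that did not overlap, and 59.1% were lower at 5 µM. Those shares are of single probe sets and give no rate for a mean over 10 genes. Array medians were 6.62 to 6.64 in untreated cells and 6.60 to 6.62 at 5 µM. Whether the list differs from this array-wide shift was not tested. Schwann and mesenchymal markers had a mean over 13 genes of 6.187 to 6.245 on untreated arrays, 6.186 to 6.213 at 0.5 nM and 6.194 to 6.224 at 5 µM, ranges that overlapped in all groups. The part of either list in the S100B values was not tested, and none of the genes of either list passed in any comparison.

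**Figure D2:**
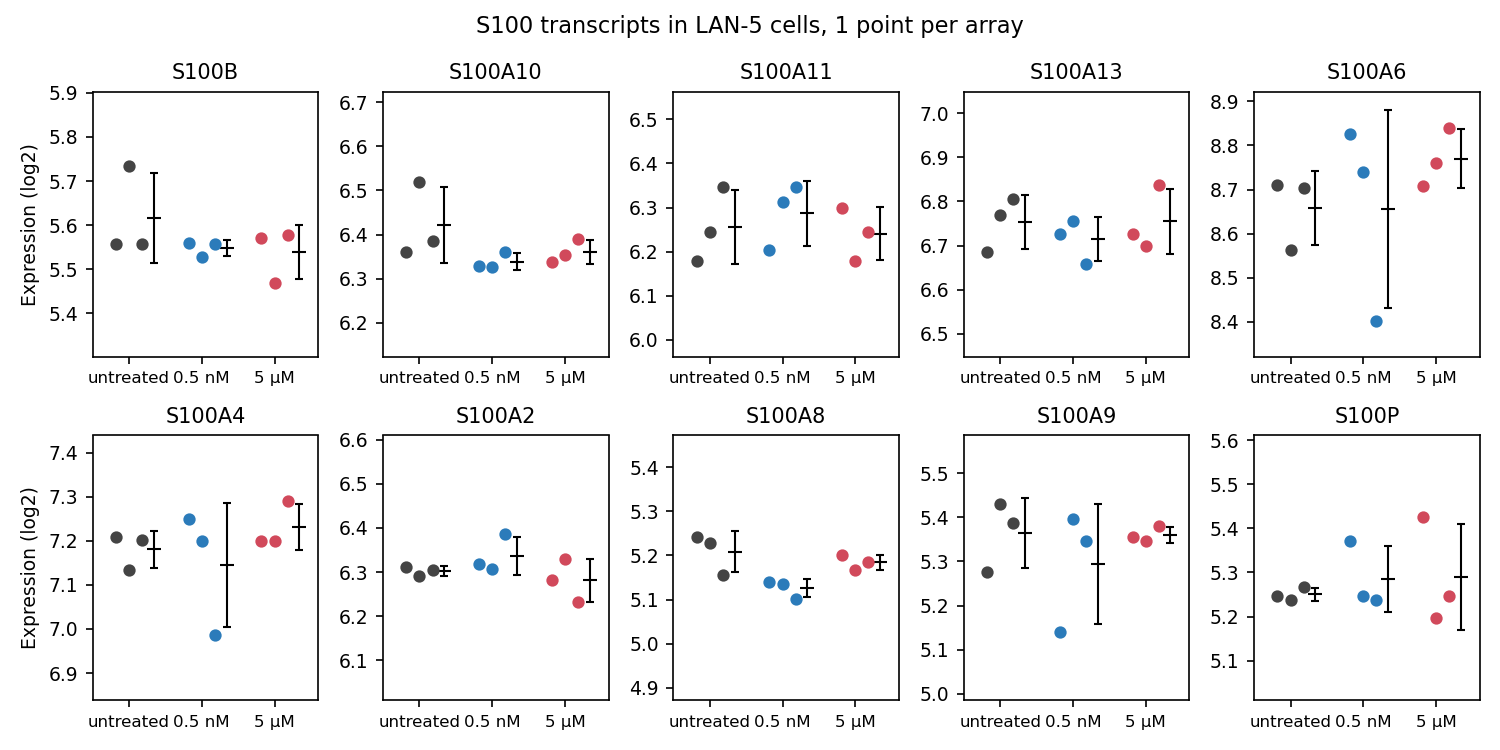
Log2 expression of the 10 S100 genes, 1 point per array in replicate order within untreated, 0.5 nM and 5 µM groups, with the mean and SD of 3 arrays beside them. Each panel spans 0.6 log2, and the groups overlap in every panel except that of S100A8, where the 0.5 nM arrays lie below both other groups.

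S100A10 and S100A11 are the annexin partners of the family. S100A10, also known as p11, has lost the calcium switch and stays bound to annexin A2 at the inner face of the membrane. Its arrays gave 6.36, 6.52 and 6.39 in untreated cells, 6.33, 6.33 and 6.36 at 0.5 nM and 6.34, 6.35 and 6.39 at 5 µM. Untreated replicate 2 was the highest of the 9, as for S100B, and the other 8 arrays lay between 6.33 and 6.39. The level at 5 µM was 95.8% of untreated (88.8% to 103.3%, limma's adjusted p = 0.795) and that at 0.5 nM 94.37% (87.47% to 101.8%, adjusted p = 0.979). Without untreated replicate 2 the log2 difference at 5 µM was -0.01 in place of -0.06, and at 0.5 nM -0.03 in place of -0.08.

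S100A11, which binds annexin A1 and acts in membrane repair and growth control, had overlapping ranges in the 3 groups. It was at 6.18, 6.25 and 6.35 on the untreated arrays, 6.20, 6.31 and 6.35 at 0.5 nM and 6.30, 6.18 and 6.25 at 5 µM. The level at 5 µM was 98.96% of untreated (90.34% to 108.4%) and that at 0.5 nM 102.2% (93.28% to 111.9%). RefSeq lists pseudogenes of S100A11, and whether the probes separate them from the gene was not tested here.

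S100A6 and S100A4 were the members that varied most in step. S100A6, or calcyclin, is found in proliferating cells and binds the calcyclin-binding protein CACYBP, and S100A4, or metastasin, binds non-muscle myosin and is linked to cell motility. S100A6 gave 8.71, 8.56 and 8.70 in untreated cells, 8.83, 8.74 and 8.40 at 0.5 nM and 8.71, 8.76 and 8.84 at 5 µM. S100A4 gave 7.21, 7.13 and 7.20 in untreated cells, 7.25, 7.20 and 6.99 at 0.5 nM and 7.20, 7.20 and 7.29 at 5 µM. In both genes 0.5 nM replicate 3 was the lowest of all arrays, untreated replicate 2 the next lowest, 5 µM replicate 3 the highest and 0.5 nM replicate 1 the next highest.

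The groups overlapped in both genes. S100A6 was at 108.0% of untreated at 5 µM (92.66% to 125.9%, limma's adjusted p = 0.827) and at 99.82% at 0.5 nM (85.62% to 116.4%, adjusted p = 0.999). S100A4 was at 103.5% (93.2% to 114.9%, adjusted p = 0.904) and 97.58% (87.88% to 108.4%, adjusted p = 0.986). Without the 1 low array, 0.5 nM replicate 3, the log2 difference of 0.5 nM from untreated was 0.12 in place of -0.0027 for S100A6. For S100A4 it was 0.04 in place of -0.04. Between the doses S100A6 then went from 0.11 to -0.01 and S100A4 from 0.08 to 0.0052. The S100A6 difference of -0.0027 had no stable sign: it changed sign in 5 of 15 alternative settings, among them quantile normalization, at 0.0057. That of S100A4 at 0.5 nM changed sign in 1 of 15. On 0.5 nM replicate 3 the RNA integrity controls had a 3' minus 5' signal of 0.01 log2 for ACTB, where all arrays ran from -0.17 to 0.14. For GAPDH it was 0.35, where they ran from 0.20 to 0.40. The cause of the low values on that array was not tested.

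Over the 9 arrays the levels of S100A6 and S100A4 correlated with a Pearson r of 0.975 (exact permutation test, two-sided, p = 0.000265, adjusted p = 0.0119 over the 45 pairs of members) and a Spearman rho of 0.78 (exact permutation p = 0.0174, adjusted p = 0.391). Leaving out 0.5 nM replicate 3 and untreated replicate 2, the arrays farthest from the median of S100A6, r was 0.888 over 7 arrays (exact permutation p = 0.019). Without 0.5 nM replicate 3 alone it was 0.939, and with the group means taken out it was 0.988. Among the 8745 other probe sets S100A4 had the highest r with S100A6, and S100A6 the second highest with S100A4. Only 5 probe sets exceeded an r of 0.9 with S100A6 and 12 lay below -0.9. The rank test did not pass over the 45 pairs, and 3 arrays share 1 deposited value of S100A4, 7.2001.

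**Figure D3:**
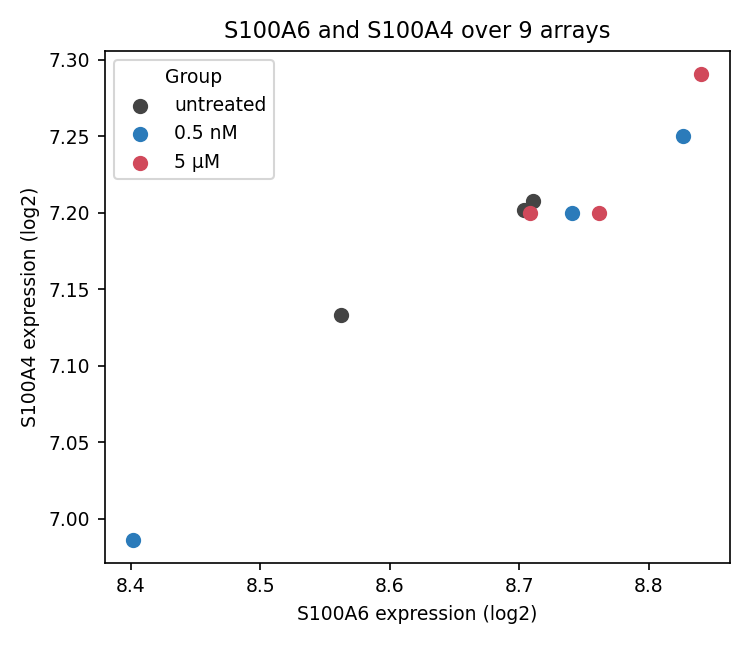
Log2 expression of S100A4 against S100A6, 1 point per array, coloured by group. The points rise together from 0.5 nM replicate 3 at 8.40 and 6.99 to 5 µM replicate 3 at 8.84 and 7.29, with arrays of the 3 groups mixed along the line.

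S100A6 and S100A4 stand close together on chromosome 1 with S100A5 between them, and are read in the same direction. Their promoters are shown because they are the pair of members that varied together. Both are from RefSeq (GRCh38.p14), 250 bases before to 50 after the start, minus strand, S100A6 at chr1:153535942-153536241 and S100A4 at chr1:153545757-153546056. Capitals mark TATAA, the core of a TATA box, searched as TATAA on both strands.
S100A6: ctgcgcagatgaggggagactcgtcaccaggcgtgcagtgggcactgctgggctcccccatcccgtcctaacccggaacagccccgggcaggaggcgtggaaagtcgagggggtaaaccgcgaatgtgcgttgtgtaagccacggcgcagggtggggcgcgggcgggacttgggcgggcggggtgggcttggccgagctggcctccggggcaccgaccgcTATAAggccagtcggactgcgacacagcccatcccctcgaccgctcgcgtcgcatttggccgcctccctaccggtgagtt
S100A4: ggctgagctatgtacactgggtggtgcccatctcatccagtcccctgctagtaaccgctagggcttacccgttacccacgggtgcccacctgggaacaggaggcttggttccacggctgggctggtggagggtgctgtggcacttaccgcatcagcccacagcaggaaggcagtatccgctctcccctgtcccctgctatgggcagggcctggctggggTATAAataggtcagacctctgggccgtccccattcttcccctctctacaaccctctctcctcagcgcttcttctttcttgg
The motif begins 30 bases before the start of S100A6 and 31 bases before that of S100A4. It was found on the gene's own strand in 7 of 14 listed windows of the members, from 6 of the 9 genes with a window (S100A13, S100A6, S100A4, S100A8, S100A9 and S100P), and on that strand in 14.8% of all 35116 windows. On either strand it was in 7 of the 14 and in 20.4% of all. S100A10, S100A11 and S100A2 had no match in their windows, and S100B had no window in the table. A match is a description of the letters only.

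The neighbouring genes did not follow the pair. S100A5, which lies between S100A6 and S100A4 and overlaps the S100A4 gene model in RefSeq, was at 6.05 on 0.5 nM replicate 3, within its range of 5.98 to 6.10 over all arrays. S100A3, on the far side of S100A4, was at 6.48 there, its lowest value, but had its highest, 6.80, on untreated replicate 2, where S100A6 and S100A4 were low. S100A1, farther along the chromosome and not a neighbour of the pair, was at its highest, 7.32, on 0.5 nM replicate 3. It was at its lowest, 6.96, on 5 µM replicate 3, the reverse of S100A6. These genes were singled out after their values were seen.

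**Figure D4:**
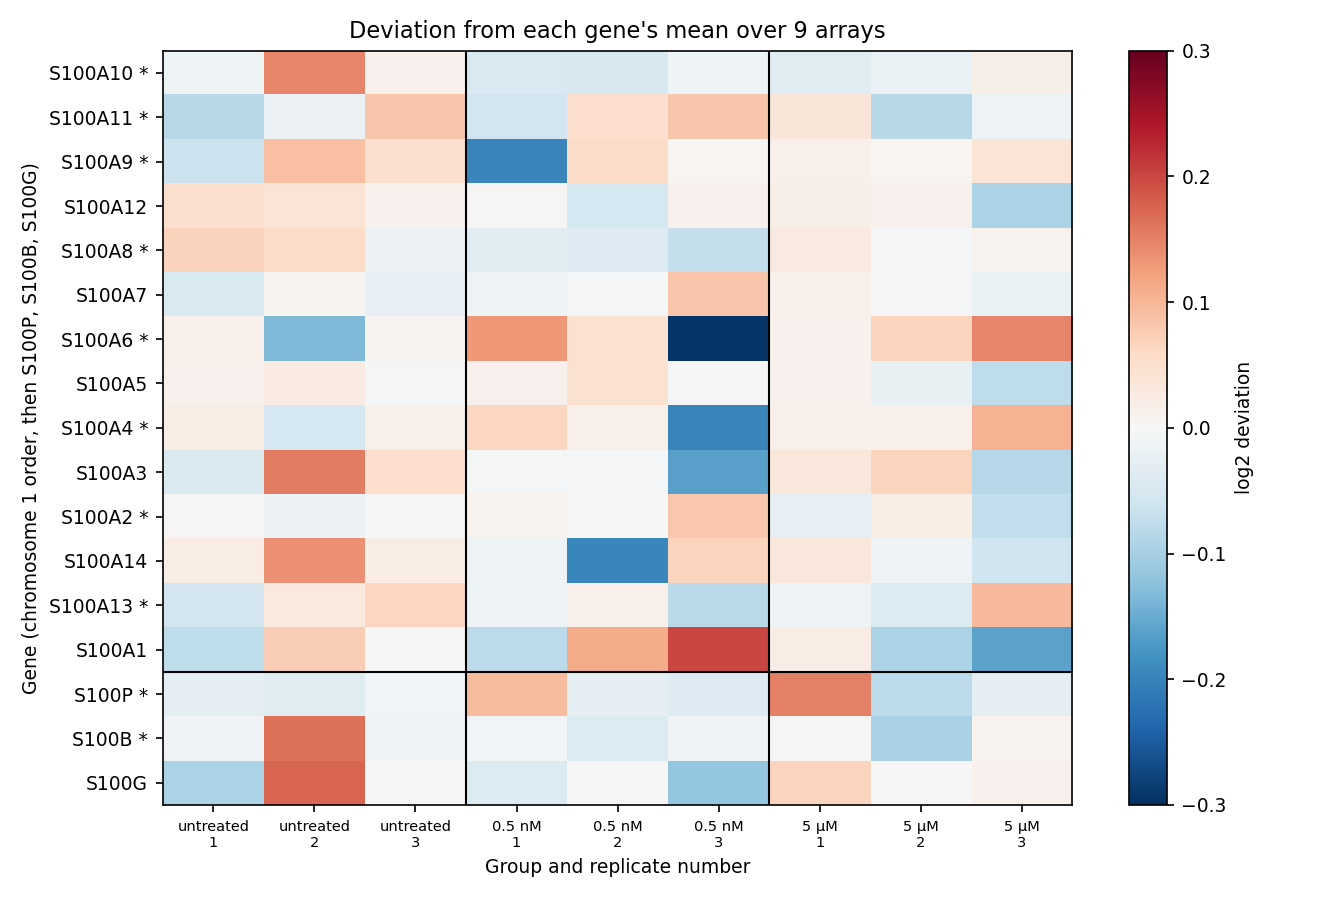
Deviation of each S100 gene from its own mean over 9 arrays (log2, colour), for 17 genes by 9 arrays, with the 10 members starred and chromosome 1 genes in their order along the chromosome. The S100A6 and S100A4 rows share their darkest cell, 0.5 nM replicate 3, and untreated replicate 2 is the highest array for S100B and S100A10.

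HBQ1, a globin gene, followed S100A4 more closely than S100A6 did, while no other probe set followed S100A6 as closely as S100A4. Chosen after these values were seen, the named probe sets above that bound with the highest r to S100A6 over the 9 arrays were S100A4, then HBQ1 at 0.955, the cold-inducible RNA-binding protein CIRBP at 0.943, the ubiquitin-conjugating enzyme variant UBE2V2 at 0.929 and the troponin TNNT1 at 0.894. For S100A4 they were HBQ1 at 0.992, S100A6, UBE2V2 at 0.962, the p97 cofactor NSFL1C at 0.948 and the epoxide hydrolase EPHX2 at 0.946. Apart from the S100 pair itself, none of these genes lies on chromosome 1.

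S100A13 takes part in the release of FGF1 and interleukin 1 alpha, which leave cells without a signal peptide. Its arrays gave 6.69, 6.77 and 6.81 in untreated cells, 6.73, 6.76 and 6.66 at 0.5 nM and 6.73, 6.70 and 6.84 at 5 µM. The groups overlapped, with means of 6.75 ± 0.06, 6.71 ± 0.05 and 6.76 ± 0.07 (SD, n = 3). At 5 µM it was at 100.1% of untreated (92.16% to 108.7%) and at 0.5 nM at 97.29% (89.6% to 105.6%).

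S100A2, a nuclear member that binds p53 and is typical of basal epithelium, stayed in a narrow band. It gave 6.31, 6.29 and 6.30 in untreated cells, 6.32, 6.31 and 6.39 at 0.5 nM and 6.28, 6.33 and 6.23 at 5 µM. The highest array was 0.5 nM replicate 3 and the lowest 5 µM replicate 3, the opposite ends from S100A6. At 5 µM the level was 98.59% of untreated (92.28% to 105.3%, limma's adjusted p = 0.949), and at 0.5 nM 102.5% (95.92% to 109.5%, adjusted p = 0.979).

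S100P, found in placenta and many carcinomas, binds ezrin and signals through RAGE when secreted. Its values were 5.25, 5.24 and 5.27 in untreated cells, 5.37, 5.25 and 5.24 at 0.5 nM and 5.42, 5.20 and 5.25 at 5 µM. Replicate 1 was the highest array at each dose, and the other 7 arrays lay between 5.20 and 5.27. The probe set was at 102.7% of untreated at 5 µM (93.11% to 113.3%) and at 102.4% at 0.5 nM (92.84% to 113.0%). Both signs rested on those arrays: without 5 µM replicate 1 the log2 difference at 5 µM went from 0.04 to -0.03, and without 0.5 nM replicate 1 that at 0.5 nM went from 0.03 to -0.0081. Epithelial markers averaged 5.964 to 6.015 over 11 genes on untreated arrays, 5.966 to 5.982 at 0.5 nM and 5.928 to 5.981 at 5 µM, and 0 of 11 passed in any comparison.

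S100A8 and S100A9 form calprotectin, the abundant calcium-binding complex of neutrophils and monocytes that signals through TLR4 and RAGE. S100A8 gave 5.24, 5.23 and 5.16 in untreated cells, 5.14, 5.13 and 5.10 at 0.5 nM and 5.20, 5.17 and 5.18 at 5 µM. All 3 arrays at 0.5 nM lay below all untreated arrays and below all arrays at 5 µM. S100A8 was the 1 member of 10 whose arrays did not overlap in these 2 comparisons, which held for 7.65% of all probe sets at 0.5 nM against untreated and for 7.11% between the doses. At 5 µM against untreated 0 of 10 members did not overlap, beside 13% of all probe sets.

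The difference of S100A8 was small and did not pass. At 0.5 nM it was at 94.41% of untreated (88.72% to 100.5%, limma's unadjusted p = 0.0664, adjusted p = 0.979), and at 5 µM at 98.3% (92.37% to 104.6%, adjusted p = 0.926). The residual SD of its probe set was 0.03 log2, and 5.17% of probe sets had a smaller one. Its log2 difference at 0.5 nM stayed between -0.11 and -0.06 under every alternative run, and the lowest adjusted p among them was 0.668.

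S100A9, the other subunit, did not share that pattern. Its arrays gave 5.27, 5.43 and 5.39 in untreated cells, 5.14, 5.40 and 5.35 at 0.5 nM and 5.36, 5.35 and 5.38 at 5 µM. The 0.5 nM group overlapped the others, and 1 array, 0.5 nM replicate 1, lay lowest. The level at 0.5 nM was 95.23% of untreated (85.63% to 105.9%, limma's adjusted p = 0.979), and without that array the log2 difference was 0.0062 in place of -0.07. At 5 µM it was at 99.73% (89.67% to 110.9%). Over the 9 arrays r between S100A8 and S100A9 was 0.145 and rho 0.0669 (exact permutation p = 0.723 and 0.868, adjusted p = 0.827 and 0.992 over the 45 pairs), and S100A9 ranked 3747 among the 8745 other probe sets by r with S100A8. Leukocyte markers averaged 5.631 to 5.693 over 9 genes on untreated arrays, 5.634 to 5.677 at 0.5 nM and 5.636 to 5.692 at 5 µM, so these ranges overlapped in all groups.

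S100A8 had the smallest p over the 3 groups among the members (limma's moderated F test, unadjusted p = 0.157). Likeness was ranked by r among 5226 candidate probe sets, with no test of r. S100A8 itself lay below the bound of 5.95, so its values may hold little specific signal. By the rule for likeness, the named probe sets above the bound of 5.95 that followed it most closely over the 9 arrays were the methyltransferase ICMT at an r of 0.91, the tubulin cofactor TBCC at 0.905, the SUMO protease USPL1 at 0.897, the splicing factor BCAS2 at 0.895 and the cytochrome oxidase subunit COX6A1 at 0.88.

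The spread between arrays differed among members. The residual SD within groups ran from 0.03 log2 for S100A8 and 0.04 for S100A2 to 0.14 for S100A6, and 90.3% of all probe sets had a smaller SD than S100A6. For S100A4 it was 0.09, for S100B 0.07 and for S100A10 0.05. Of the 45 pairs of members, only S100A6 with S100A4 passed an adjusted exact permutation p of 0.05 for Pearson's r. The next was S100A13 with S100A2, with an r of -0.814 and a rho of -0.795 (exact permutation p = 0.00612 and 0.0138, adjusted p = 0.138 and 0.391).

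S100B with S100A10 reached an r of 0.863 and a rho of 0.528 (exact permutation p = 0.0332 and 0.15, adjusted p = 0.374 and 0.681). That relation rested on 1 array: without untreated replicate 2, high in both genes, r was 0.244 (exact permutation p = 0.6). Without the 2 arrays farthest from the median of S100B it was 0.49 over 7 arrays.

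The 7 other S100 genes on the array gave no call either. S100A1, S100A3, S100A5, S100A7, S100A12, S100A14 and S100G had 0 genes higher and 0 lower by limma in each comparison. In each, 0 were under an unadjusted p of 0.05, beside 7.71%, 4.04% and 4.44% of all probe sets at 5 µM, at 0.5 nM and between the doses. Their log2 differences at 5 µM ran from -0.08 to 0.02 with a median of -0.05. Those with the smallest p at 5 µM were S100A12, a neutrophil member, at -0.06 ± 0.04 (SE), and S100A14, an epithelial member, at -0.07 ± 0.07. S100A1, known from heart muscle, had the widest difference of the family between the doses, at 89.8% of its 0.5 nM level at 5 µM (79.65% to 101.2%, adjusted p = 0.988).

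The proteins that S100 proteins bind were covered by a list of 40 genes, 35 of them measured. By limma 0 rose and 0 fell in each of the 3 comparisons, while 4 of 35 had an unadjusted p under 0.05 at 5 µM, 3 at 0.5 nM and 2 between the doses, beside 7.71%, 4.04% and 4.44% of all probe sets. The list median at 5 µM was -0.01. ANXA2, the annexin that S100A10 binds, was at 7.62 ± 0.06 in untreated cells, 7.55 ± 0.03 at 0.5 nM and 7.40 ± 0.09 at 5 µM (SD, n = 3), a difference of -0.22 ± 0.05 (SE) at 5 µM with an adjusted p of 0.312. STK38, a kinase that S100B activates, was at 7.28 ± 0.05, 7.39 ± 0.01 and 7.50 ± 0.10, a difference of 0.22 ± 0.06 (SE) with an adjusted p of 0.312. AGER, the gene of RAGE, was at 0.07 ± 0.05 (SE) at 5 µM with an adjusted p of 0.793. The AGER probe set lay below the bound of 5.95 and may hold little specific signal.

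Other EF-hand genes gave the same count. Of 28 listed, 23 were measured, and 0 rose and 0 fell in each comparison by limma. At 5 µM, at 0.5 nM and between the doses 1, 0 and 2 had an unadjusted p under 0.05. The shares of all probe sets were 7.71%, 4.04% and 4.44%. The median at 5 µM was -0.02. CETN2, a centrin of centrioles, was at -0.24 ± 0.08 (SE) at 5 µM (adjusted p = 0.521) and the neuronal calcium sensor HPCA at -0.11 ± 0.05 (adjusted p = 0.646). The 5 lists of cell type markers also had 0 genes past the threshold in each comparison by limma. The members with the smallest p at 5 µM were GATA3 at 0.13 and the granin CHGA at 0.20 among noradrenergic markers, TWIST1 at -0.19 and COL1A1 at -0.10 among Schwann and mesenchymal markers, and GLUL at -0.10 and MAG at -0.07 among glial markers. They were MPO at -0.13 and CD14 at 0.08 among leukocyte markers, and ELF3 at -0.24 and KRT8 at -0.11 among epithelial markers, all log2 differences.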

How the data were processed

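RNA from LAN-5 cells was measured on 9 arrays. The authors deposited log2 values for each probe set, made with GCRMA per the submitters' processing notes, where no version is given. The scale was judged from the range, 4.37 to 14.5. Of 8793 probe sets 47 controls were left out. Of the other 8746, 7840 had 1 gene symbol, 388 several and 518 none in the platform annotation, with symbols checked by Entrez identifier against RefSeq (GRCh38.p14).

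Groups and replicate numbers came from the sample titles. A single linear model covered all 9 arrays (limma 3.58.1, R 4.3.3, lmFit and eBayes, 1 factor of 3 groups, no covariate, no intensity filter), with Benjamini-Hochberg adjustment over 8746 probe sets per comparison and a threshold of 0.05. A fit of the 5830 probe sets with a mean above 5.95 was an alternative. Intervals are 95% and moderated, and the median half-width at 5 µM was 0.134 log2. With 3 arrays a group, the smallest two-sided permutation p is 0.1. Correlations between members used all pairings of the 9 arrays. For a list, the probe set of highest mean stood for a gene.

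Members, lists and rules were chosen with earlier results of these data known. Every member is named; of other lists, the 2 genes with the smallest p at 5 µM, and AGER. Alternatives were quantile normalization, median centring, the intensity filter, only the 2 groups compared, an intensity trend, the replicate number as a block and leaving out each array. The code was tested on simulated data. The number of arrays limits the precision.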

Additional observations from a re-analysis of the deposited data

How the results depend on the processing

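No setting tried gave a call for an S100 member: 0 were called in each comparison under quantile normalization, median centring, the intensity filter (6 members left), a fit of only the 2 groups, an intensity trend, the replicate block and without each array. The lowest adjusted p of a member was 0.632, for S100A6 at 5 µM in the fit of only the 2 groups. Of 438 log2 differences recomputed, 438 moved by less than the residual SD of the gene, and 31, in 15 of the 30 member comparisons, changed sign, none of them called. Many of the 438 could not move. The intensity filter, the fit of only the 2 groups, the replicate block and the intensity trend leave a difference of group means unchanged. Leaving out an array of the group not compared does so too, so the 438 overstate the stability.

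The counts over all probe sets moved more. At 5 µM 16 became 5 in the fit of only the 2 groups, and 3, 6 and 5 without untreated replicates 1, 2 and 3, and 6, 1 and 9 without 5 µM replicates 1, 2 and 3. Between the doses 14 became 22 after quantile normalization, 2 in the fit of only the 2 groups, 5, 5 and 4 without 0.5 nM replicates 1, 2 and 3, and 2, 1 and 8 without 5 µM replicates 1, 2 and 3; the cause was not tested. At 0.5 nM the count was 0 throughout. The main fit did not pair arrays by replicate number. Same-numbered arrays correlated in their deviations from the group means at 0.24 to 0.29 in the 3 pairs of replicate 3. The values were -0.0030 to 0.19 in the pairs of replicate 2 and -0.0060 to 0.06 in those of replicate 1. Arrays of different numbers were not compared in this way, so whether the numbers pair the arrays was not tested. With the replicate block 12 probe sets passed at 5 µM, 0 at 0.5 nM and 15 between the doses, 0 of them members.

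The alternatives for the correlations were chosen after seeing the data. The r of S100A6 with S100A4 was 0.98 after quantile normalization, 0.985 after median centring and 0.939 to 0.984 without any 1 array. That of S100B with S100A10 was 0.244 to 0.942 without any 1 array, and its exact permutation p was 0.0604 without 5 µM replicate 3.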

Other observations

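The deposited table repeats values exactly. At its 5 decimals S100B had the same value on 3 of the 9 arrays, untreated replicates 1 and 3 and 0.5 nM replicate 3, and S100A4 on 3, 0.5 nM replicate 2 and 5 µM replicates 1 and 2. Of the 10 members 6 held at least 1 repeated value and 2 held one on 3 or more arrays, beside 57.9% and 26.9% of all 8746 probe sets. Where a value repeats, ranks are tied. The cause of the repeats and their effect on the spread between arrays were not tested.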
